A study of Mus musculus with 4 samples.

Results

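The heat shock chaperones described here are 67 of the 16051 genes in the deposited expression table. They were chosen by symbol: 73 rows begin with the Hsp or Dnaj stems of the chaperone families, and 6 of these were left out, namely the ER chaperones Hspa5, Hsp90b1, Dnajb9, Dnajb11 and Dnajc3, and Hspg2, a matrix proteoglycan that shares only the letters. By class the members were 2 HSP90 genes, 13 HSP70 and HSP110 genes, the HSP60 and HSP10 pair and 7 small HSP genes. The others were 2 genes of HSP-binding proteins and 41 J-protein genes, of which 4 were DNAJA, 11 DNAJB and 26 DNAJC. The cells were 3T3-L1, a mouse embryonic fibroblast line of 1 clonal origin (strain NIH Swiss) that was put through a differentiation cocktail and is labelled as adipocytes. Cells of both groups were treated for 48 h, either with 100 μM risperidone, an atypical antipsychotic drug, or with its vehicle DMSO, which the labels call untreated. Each group had 2 libraries of mRNA, and each library came from the pooled RNA of 3 cultures, so the p-values measure the spread between pooled libraries, which may be technical.

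Heat shock chaperones bind unfolded stretches of other proteins and let them fold, refold, cross membranes or be degraded. HSP70 does this in cycles of ATP hydrolysis. J-proteins deliver clients to HSP70 and start hydrolysis, exchange factors such as HSP110 release the client, and HSP90 acts later on kinases, receptors and other partly folded clients. Mitochondria carry their own HSP70, HSP60 and HSP10. In the cytosol the inducible genes are switched on by heat shock factor 1, which binds repeated GAA and TTC units in their promoters. The rule also keeps 9 J-protein and HSP70 genes whose products are known in the ER, among them Dnajb12, Dnajb14 and Dnajc10, so the set is wider than the cytosol and mitochondria.

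The libraries held between 15883716 and 16374118 estimated read counts. A count of 0 at this depth allows up to 3 counts, or 0.183 to 0.189 CPM (counts scaled to the library total), and this limit covers counting error only. Of 10 adipocyte markers, 6 (Adipoq, Retn, Cidec, Cfd, Cebpa and Plin1) had at most 14 counts in every library, while the other 4 (Fabp4, Lipe, Pnpla2 and Pparg) and 10 of 10 fibroblast or preadipocyte markers passed the expression limit. The adipocyte label is thus met by some of its markers and not by others, Adipoq and Plin1 among them, and the cells are named here by treatment. The summed counts of 10 kidney tubule markers were 133 and 127 with DMSO, and 148 (replicate 1) and 3471 (replicate 2) with risperidone, and their part in the results below was not tested. Counts over the members and lists are therefore also given without risperidone replicate 2. Of the 10 retina markers, looked at because the labels mention retina, 7 were in the table and 0 passed the expression limit.

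As many chaperone genes were higher as were lower with risperidone. Of the 67 members, 54 averaged 1 FPKM or more and were tested with edgeR's quasi-likelihood test together with all other such genes. At an adjusted p under 0.05, 17 were higher and 17 lower, which is 31.5% in each direction. Over all 10243 genes tested, 32.1% were higher, 32.2% lower and 64.3% changed in either direction, so the share of chaperones that changed lay near the background. The median log2 fold change, risperidone over DMSO, was 0.01 for the 54 members and 0.00 for all genes. Without risperidone replicate 2, 19 members were higher and 19 lower. The log2 fold changes are scaled by TMM, which centres a trimmed mean of the genes at no change, and lie about 0.09 above those from FPKM, since scaling by library size alone put the median of all genes at -0.09. After rescaling to TPM the median of all genes was -0.22, and limma on log2(TPM + 1) called 4 members higher and 28 lower, so that 12.5% of the calls were higher in place of 50%. Of all genes on that scale 15% were higher and 51.7% lower, and with library size scaling 24.4% and 39.9%. Of the calls over all genes 49.9% were higher in edgeR's test under TMM and 22.5% in limma's test on TPM, which differ in both scaling and test. Taken relative to the median of all genes, the members' median was 0.01 under TMM and 0.01 under TPM.

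**Figure D1:**
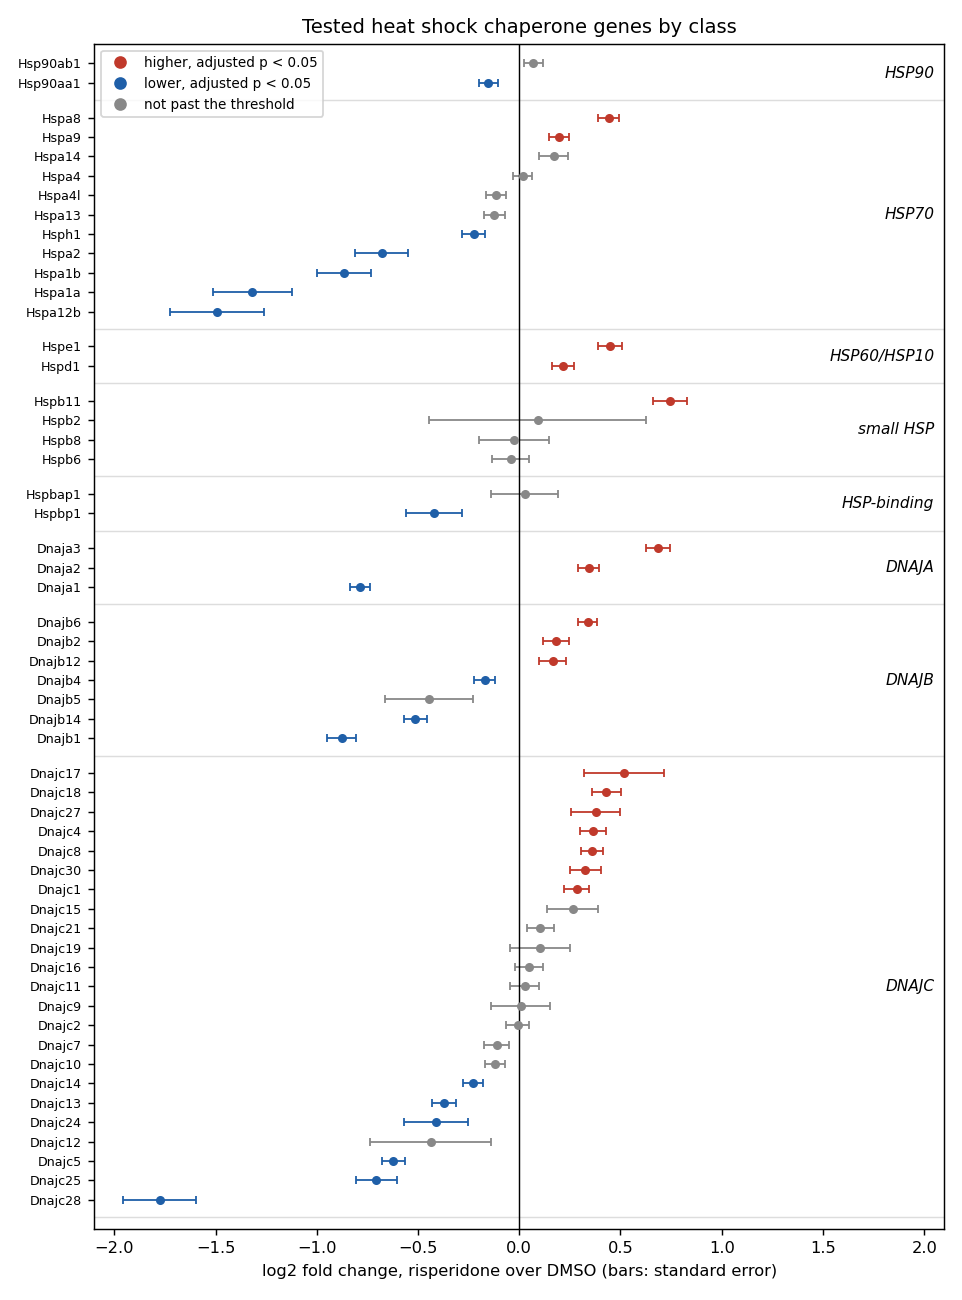
Log2 fold change (risperidone over DMSO, x axis) of the 54 tested chaperone genes, grouped by class; points are edgeR estimates under TMM scaling and bars their standard errors. The values run from -1.78 (Dnajc28) to 0.75 (Hspb11), and HSP70 and DNAJ classes hold changes in both directions.

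Within the HSP70 class, the stress-inducible Hspa1a and Hspa1b were lower with risperidone. Hspa8, a constitutive gene that is also in the inducible list below, was higher. Hspa1a and Hspa1b encode almost the same protein, the inducible cytosolic HSP70 that is scarce in resting cells. Hspa1a was at 2.58 and 2.45 FPKM in the DMSO libraries and at 0.85 and 1.03 FPKM in the risperidone libraries. Hspa1b was at 7.44 and 8.01 FPKM with DMSO and at 3.42 and 4.5 FPKM with risperidone. For both genes every risperidone library lay below every DMSO library. The log2 fold change of Hspa1a was -1.32 (standard error 0.20, edgeR adjusted p = 0.000147), a 2.49-fold decrease, and that of Hspa1b was -0.87 (standard error 0.13, edgeR adjusted p = 0.000178), a 1.82-fold decrease. Leaving out any 1 library gave -1.45 to -1.19 for Hspa1a and -1.07 to -0.69 for Hspa1b.

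The genes Hspa1a and Hspa1b are neighbours on chromosome 17 with 10120 bases between them, and their longest open reading frames are 99.4% identical. Their counts were fractional, which shows that reads were divided between genes, so the split between the pair is uncertain. Summed over both genes, the level was 26.0 and 27.1 CPM of the TMM-scaled library size with DMSO and 11.9 and 15.3 with risperidone, a 1.95-fold difference between the means on that scale that does not depend on the split. Their regulatory sequence is shown because it, too, is nearly the same: in RefSeq (GRCm38.p6) 247 of the 250 bases before the start of transcription are identical. The 250 bases before the start of Hspa1a (chr17:34972157-34972406, minus strand, upstream of the gene and in no annotated exon) are given here with the paired heat shock unit in capitals.
Hspa1a: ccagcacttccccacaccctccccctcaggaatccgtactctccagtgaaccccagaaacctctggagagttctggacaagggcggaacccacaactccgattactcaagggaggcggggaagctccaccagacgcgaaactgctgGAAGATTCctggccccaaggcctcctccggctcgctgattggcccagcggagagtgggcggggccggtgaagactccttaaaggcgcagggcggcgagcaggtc

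Hspa8, the constitutive HSC70 that also strips clathrin from vesicles, was the most abundant member. It was at 1114 and 1192 FPKM with DMSO and at 1441 and 1489 FPKM with risperidone. The groups did not overlap, and the log2 fold change was 0.44 (standard error 0.05, edgeR adjusted p = 2.37e-05). It was 0.20 after rescaling to TPM, which is 0.43 above the median of all genes on that scale. The ratio of Hspa8 to the sum of Hspa1a and Hspa1b in FPKM was 111 and 114 with DMSO and 338 and 269 with risperidone, so the balance between constitutive and inducible HSP70 transcripts separated the treatments within each library.

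The other HSP70 relatives were lower or did not pass the test, apart from the mitochondrial Hspa9. Hspa2, an HSP70 best known from the testis, was at 8.08 and 10.1 FPKM with DMSO and 4.83 and 5.78 FPKM with risperidone (log2 fold change -0.68, edgeR adjusted p = 0.000867). Hspa12b, a distant relative described in endothelium, was at 2.06 and 1.63 FPKM against 0.61 and 0.64 FPKM (log2 fold change -1.49, edgeR adjusted p = 0.000202). Both were separated between the treatments. Hsph1, the inducible HSP110 that exchanges nucleotide on HSP70, was at 27.3 and 28.8 FPKM with DMSO and 23.4 and 22.4 FPKM with risperidone (log2 fold change -0.23, edgeR adjusted p = 0.00577), and this adjusted p was 0.0940 without DMSO replicate 2. Its constitutive relative Hspa4 was at 79.4, 78.8, 74.3 and 75.5 FPKM in the same order of libraries, with a log2 fold change of 0.02 under TMM and -0.22 after rescaling to TPM, and did not pass edgeR's test (adjusted p = 0.769), while limma on TPM called it lower (adjusted p = 0.00413). Hspa4l and Hspa13 had log2 fold changes of -0.11 and -0.12, and Hspa14, an HSP70 that works at the ribosome, of 0.17 (-0.02 after rescaling to TPM). None passed the threshold in edgeR's test under TMM scaling on all 4 libraries without a block. With the replicate number as a block Hspa14 was called higher (edgeR adjusted p = 0.0342). Without risperidone replicate 2 Hspa14 was called higher (0.24, edgeR adjusted p = 0.00497) and Hspa4l lower (-0.16), and without risperidone replicate 1 Hspa13 was called lower (-0.16). Hspa13 and Hspa4l were also called lower with library size scaling, the length offset, at least 5 FPKM and TPM.

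Both HSP90 genes were abundant and differed little between the treatments. Hsp90ab1, the constitutive HSP90, was at 1296 and 1297 FPKM with DMSO and 1291 and 1253 FPKM with risperidone. Its log2 fold change was 0.07 (standard error 0.05, edgeR adjusted p = 0.221), and the sign turned with library size scaling (-0.02), with a gene length offset (-0.06) and after rescaling to TPM (-0.17). It was called higher without risperidone replicate 2 (0.10, edgeR adjusted p = 0.0260) and lower with TPM (limma adjusted p = 0.00975). Hsp90aa1, the inducible HSP90, was at 237 and 242 FPKM with DMSO and 199 and 205 FPKM with risperidone. Here the groups did not overlap, and the log2 fold change was -0.15 (standard error 0.05, edgeR adjusted p = 0.0154). That adjusted p was 0.0779 without DMSO replicate 1 and 0.136 without DMSO replicate 2, so the call for Hsp90aa1 rests on having both DMSO libraries. The ratio of Hsp90ab1 to Hsp90aa1 in FPKM was 5.46 and 5.35 with DMSO and 6.50 and 6.11 with risperidone. Together Hsp90ab1 and Hspa8 made up 55.8% and 56.1% of the members' summed FPKM in the DMSO libraries and 59.3% in each risperidone library.

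**Figure D2:**
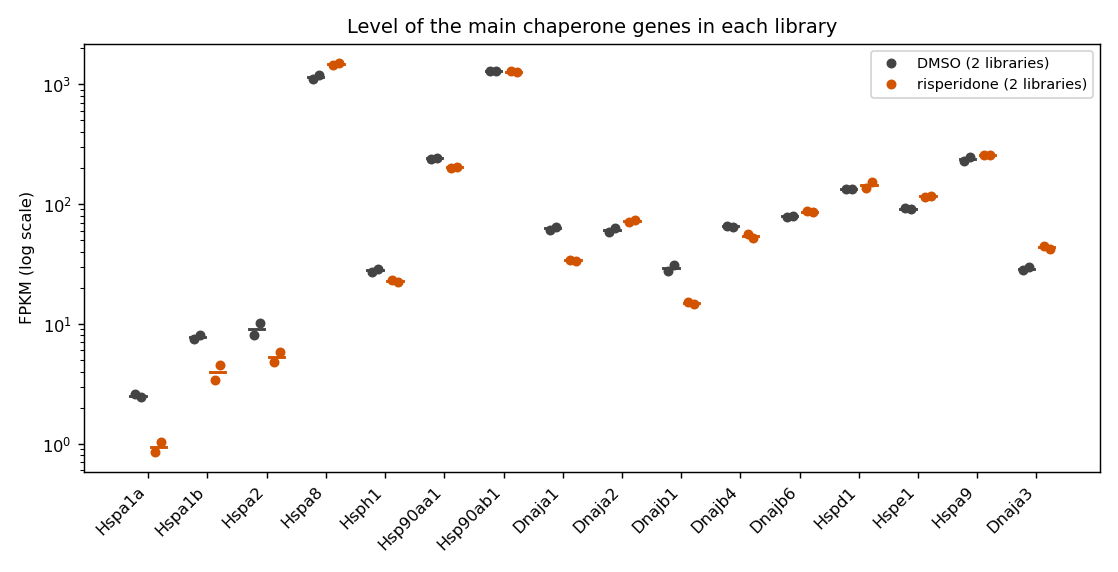
FPKM (log axis) of 16 main chaperone genes in each of the 4 libraries, DMSO in grey and risperidone in orange; points are libraries and short lines the mean of 2. Hspa1a, Hspa1b, Dnaja1 and Dnajb1 show the wide gaps, with risperidone below DMSO, and Hspa8 and Hsp90ab1 stand highest, with means of 1309 and 1284 FPKM.

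Among the cytosolic J-proteins, the heat-inducible Dnajb1, Dnaja1 and Dnajb4 were lower, while Dnaja2 and Dnajb6 were higher under TMM scaling. Dnajb1, the classic heat-inducible HSP40 that works with HSP70 in refolding, was at 27.7 and 30.8 FPKM with DMSO and 15.2 and 14.6 FPKM with risperidone. The log2 fold change was -0.88 (standard error 0.07, edgeR adjusted p = 1.65e-06), a 1.84-fold decrease. Dnaja1, a farnesylated and heat-inducible J-protein, was at 60.4 and 64.7 FPKM with DMSO and 34.2 and 33.7 FPKM with risperidone. The decrease of Dnaja1 was 1.72-fold (log2 fold change -0.79, standard error 0.05, edgeR adjusted p = 3.24e-07). For Dnajb1 and Dnaja1 the gap between the treatments was several times the gap between replicates.

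Dnaja2, the paralog of Dnaja1 that is not strongly heat-inducible, went the other way. It was at 58.0 and 63.1 FPKM with DMSO and 70.6 and 73.0 FPKM with risperidone (log2 fold change 0.34, standard error 0.05, edgeR adjusted p = 0.000160), and 0.10 after rescaling to TPM, where it was not called. The ratio of Dnaja2 to Dnaja1 was 0.960 and 0.975 with DMSO and 2.06 and 2.16 with risperidone. This ratio is taken within a library, so the order of its values between the treatments is free of the scaling between libraries.

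Dnajb6, which keeps aggregation-prone proteins soluble, was at 77.3 and 80.2 FPKM with DMSO and 86.6 and 85.9 FPKM with risperidone (log2 fold change 0.34, edgeR adjusted p = 9.98e-05). After rescaling to TPM its log2 fold change was -0.01, or 0.21 above the median of all genes. Dnajb4, an HSP40 close to Dnajb1, was at 65.4 and 64.6 FPKM with DMSO and 56.2 and 51.9 FPKM with risperidone (log2 fold change -0.17, standard error 0.05, edgeR adjusted p = 0.0142). The call for Dnajb4 was lost without DMSO replicate 1, DMSO replicate 2 or risperidone replicate 2, and its log2 fold change without the last was -0.11. Dnajb2, a J-protein that hands clients to the proteasome, was called higher at 0.18, but not without DMSO replicate 1 (edgeR adjusted p = 0.108), with DESeq2 (adjusted p = 0.108), with library size scaling, with the length offset, with FPKM or with TPM (log2 fold change 0.01). Dnajb5 (-0.44, standard error 0.22) and Dnajc7 (-0.11), an adaptor between HSP70 and HSP90, did not pass edgeR's test under TMM scaling without a block. Both were called lower with library size scaling (-0.54 and -0.20), the length offset and TPM. With the replicate number as a block Dnajb5 was called lower (edgeR adjusted p = 0.0431). With libraries left out Dnajb5 ranged from -0.75 to -0.19 and was called without risperidone replicate 1 (edgeR adjusted p = 0.0122).

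Over a list of 14 members best known as heat-inducible targets of heat shock factor 1, 12 were tested, 7 were lower and 3 higher, with a median log2 fold change of -0.16. The lower genes were Hspa1a, Hspa1b, Dnajb1, Dnaja1, Hsph1, Dnajb4 and Hsp90aa1. The higher genes were Hspa8, Hspd1 and Hspe1, and Hspa8 is also a constitutive gene. Hsp90ab1, in the list though named above as the constitutive HSP90, and Hspb8 did not pass the test. Hspb1 and Dnaja4 were below the expression limit. Without risperidone replicate 2 the list had 6 lower and 4 higher members. With TPM it had 8 lower and 2 higher, and relative to all genes on that scale its median was -0.18. The 24 tested members of the cytosol had 10 lower and 4 higher genes with a median of -0.13. Without risperidone replicate 2 they had 11 lower and 6 higher, with library size scaling 13 lower and 3 higher, and with TPM 17 lower and 1 higher at a median of -0.36, or -0.14 relative to all genes. Of all genes 39.9% and 51.7% were lower under those 2 scalings. The list was written with earlier results of these data known, and its counts are a description beside the 32.2% of all tested genes that were lower.

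The mitochondrial folding machinery was higher with risperidone in several parts. Hspe1, the HSP10 lid of the folding chamber, was at 92.2 and 90.4 FPKM with DMSO and 115 and 116 FPKM with risperidone (log2 fold change 0.45, standard error 0.06, edgeR adjusted p = 7.07e-05). Hspd1, the HSP60 that forms the chamber, was at 133 and 133 FPKM with DMSO and 137 and 152 FPKM with risperidone (log2 fold change 0.22, standard error 0.05, edgeR adjusted p = 0.00467). The groups did not overlap for either gene, but Hspd1 was no longer called with library size scaling (log2 fold change 0.12), the length offset (0.08), FPKM (0.12) or TPM (-0.03). Relative to the median of all genes the TPM value of Hspd1 was 0.20. The ratio of Hspd1 to Hspe1 was 1.45 and 1.47 with DMSO and 1.19 and 1.31 with risperidone.

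Dnaja3, the J-protein of the mitochondrial matrix, had the largest rise among the main chaperones. It was at 27.9 and 29.8 FPKM with DMSO and 44.6 and 42.2 FPKM with risperidone, a 1.61-fold increase (log2 fold change 0.69, standard error 0.06, edgeR adjusted p = 2.77e-06), and 0.44 after rescaling to TPM. Hspa9, the mitochondrial HSP70 that pulls in imported proteins, was at 231 and 245 FPKM with DMSO and 254 and 255 FPKM with risperidone (log2 fold change 0.20, standard error 0.05, edgeR adjusted p = 0.00494). The difference for Hspa9 was close to the gap between the DMSO libraries, the call was lost without DMSO replicate 1 (edgeR adjusted p = 0.103), under library size scaling (edgeR adjusted p = 0.0898) and with FPKM, and its log2 fold change was -0.04 after rescaling to TPM, or 0.18 above the median of all genes there. Dnajc30, a mitochondrial J-protein tied to ATP synthase, was called higher at 0.33, though not without DMSO replicate 1, with the length offset (0.16) or with TPM (0.08). Dnajc15 (0.26) and Dnajc19 (0.10), which sit at the import motor of the inner membrane, and Dnajc11 (0.03) did not pass edgeR's test. Dnajc19 ranged from -0.20 without risperidone replicate 1 to 0.35 without risperidone replicate 2, where it was called higher (edgeR adjusted p = 0.00972), and Dnajc11 was called lower with TPM (-0.21, limma adjusted p = 0.0213).

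The exception in the mitochondrial group was Dnajc28, the member with the largest decrease of all. It was at 2.89 and 2.65 FPKM with DMSO and 0.76 and 0.72 FPKM with risperidone, from 155, 138, 41 and 39 counts. The treatments were far apart compared with the replicates, and the decrease was 3.42-fold (log2 fold change -1.78, standard error 0.18, edgeR adjusted p = 8.99e-06). Of the 9 mitochondrial members, all tested, 5 were higher and 1 lower, or 55.6% and 11.1% beside 32.1% and 32.2% of all genes, with a median log2 fold change of 0.22. The median was -0.03 after rescaling to TPM, where 2 were higher and 2 lower, and 0.20 above that of all genes on that scale. Without risperidone replicate 2, 6 were higher and 1 lower.

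Promoter sequence was compared because members of the inducible list moved in both directions. Of the 67 members, 53 had a RefSeq promoter entry, a window of 300 bases that runs from 250 bases before to 50 after the start of transcription. The pair of heat shock units was searched as GAANNTTC and TTCNNGAA, each of which is its own reverse complement, so one search covers both strands. These letters were in 16 of 70 member windows (22.9%), in 15.1% of all 32851 windows and in 11.4% of the windows of tested genes. By gene, they were found for 5 of the 15 lower members with an entry, 4 of 13 higher, 3 of 14 that did not pass the test and 2 of 11 that were not tested. The genes with it were 26.4% of the members with an entry, beside 17.0% of all genes and 13.5% of tested genes, and Hspd1 and Hspe1 count the same shared bases. The difference between lower and higher members was not tested. A longer run of 3 units (GAANNTTCNNGAA or its reverse complement TTCNNGAANNTTC) was in 8.57% of member windows and 0.603% of all windows. By gene, it was found for 7.55% of members with an entry, 0.662% of all genes and 0.516% of tested genes. The genes with it were Dnajb6, Hspd1 and Hspe1 among the higher members and Hsph1 among the lower. Overlapping windows of Dnajb6 and of Hsph1 also count the same bases more than once. A match is a description of the letters and not a shown binding site.

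The windows of Dnajb1 held 0 matches, and Hspa8, Hsp90aa1 and Hsp90ab1 had no entry. Stretches with a match are shown for 8 members, each as 30 bases on the gene's own strand (GRCm38.p6) with the matching bases in capitals. Hspa1a and Hspa1b share the same stretch (chr17:34972242-34972271 and chr17:34959324-34959353, both minus strand, upstream of the genes). That of Dnaja1 (chr4:40722333-40722362, plus strand) lies before the RefSeq gene. In the GENCODE annotation it overlaps exons of Dnaja1 and of Gm6297. That of Dnajb4 (chr3:152193846-152193875, minus strand) lies just before the downstream of its 2 RefSeq starts, in no annotated exon but within the gene bounds, since the other start is at 152210083. Those of Hsph1 (chr5:149636351-149636380, minus strand) and Dnajb6 (chr5:29735844-29735873, plus strand) overlap GENCODE exons of their genes, and the latter also one of Gm5129. The run of 3 units in Hsph1 lies after its start of transcription and is not in the stretch shown.
Hspa1a and Hspa1b (lower): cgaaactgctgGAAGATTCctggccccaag
Dnaja1 (lower): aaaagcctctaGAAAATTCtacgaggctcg
Dnajb4 (lower): gttcgttcgttcgctgTTCTAGAAagtaca
Hsph1 (lower): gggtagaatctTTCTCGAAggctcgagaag
Dnajb6 (higher): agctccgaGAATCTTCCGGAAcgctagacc

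Hspd1 and Hspe1 stand head to head on chromosome 1, with RefSeq gene bounds that overlap by 96 bases, and both promoter windows hold the same 30 bases (chr1:55088053-55088082), read on the minus strand for Hspd1 and on the plus strand for Hspe1. The stretch carries 3 overlapping pairs and overlaps an annotated exon of Hspd1. Both genes of this shared region were higher with risperidone, by 0.22 and 0.45 on the log2 scale.
Hspd1 (higher): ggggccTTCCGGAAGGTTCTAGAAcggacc
Hspe1 (higher): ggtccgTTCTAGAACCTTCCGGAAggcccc

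**Figure D3:**
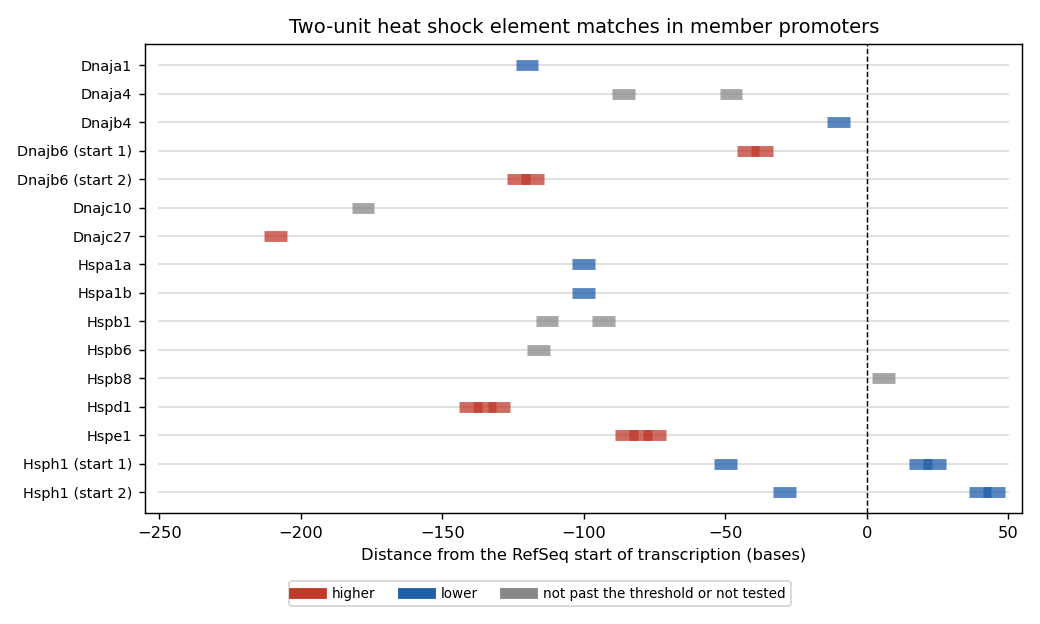
Position of the 2-unit heat shock element matches in the promoter windows of 14 members, as distance in bases from each RefSeq start of transcription; grey lines are the windows, coloured blocks the matches, and colour the call of the gene. Matches of higher members lie from -213 to -34 bases from a start, and those of lower members from -124 to 48 bases.

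The DNAJC class, the largest, holds J-proteins with special tasks, and 7 of its 23 tested members were higher and 6 lower. These shares, 30.4% and 26.1%, were near those of all genes (32.1% and 32.2%), and without risperidone replicate 2 the counts were 7 and 8. Besides Dnajc28 the lower ones included proteins of membrane traffic. Dnajc5, the cysteine string protein of secretory vesicles, was at 78.6 and 77.6 FPKM with DMSO and 44.4 and 50.4 FPKM with risperidone (log2 fold change -0.62, standard error 0.06, edgeR adjusted p = 4.48e-06). Dnajc13, which acts in endosomal sorting, was at 21.2 and 19.8 FPKM with DMSO and 14.03 and 15.65 FPKM with risperidone (log2 fold change -0.37, edgeR adjusted p = 0.000223). In both, each risperidone library was below each DMSO library. Dnajc25, a membrane J-protein, was at 14.3 and 15.0 FPKM with DMSO and 9.26 and 7.84 FPKM with risperidone (log2 fold change -0.71, standard error 0.10, edgeR adjusted p = 0.000111). Dnajc24, which works in diphthamide synthesis, and Dnajc14 were called lower at -0.41 and -0.23. The call for Dnajc24 was lost without DMSO replicate 1, without risperidone replicate 1, with DESeq2 (adjusted p = 0.142) and with no filter.

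On the higher side of the class, Dnajc8 and Dnajc17 belong to pre-mRNA splicing. Dnajc8 was at 71.2 and 78.1 FPKM with DMSO and 90.8 and 87.9 FPKM with risperidone (log2 fold change 0.36, standard error 0.06, edgeR adjusted p = 0.000207). Dnajc17 was at 4.04 and 4.13 FPKM against 4.99 and 5.82 FPKM (log2 fold change 0.52, standard error 0.20, edgeR adjusted p = 0.0380), on counts of 57 to 82. It kept its call only without risperidone replicate 1 when libraries were left out in turn. The call for Dnajc17 was also lost with DESeq2 (adjusted p = 0.168), library size scaling, the length offset, no filter and TPM. Dnajc18 of the ER membrane was at 10.53 and 10.03 FPKM against 13.54 and 12.45 FPKM (log2 fold change 0.43, edgeR adjusted p = 0.000282). These rises were smaller than the falls of Dnajc28, Dnajc25 and Dnajc5. Dnajc4 (0.36) and Dnajc27 (0.38) were also among the 5 largest rises outside the main chaperones. The call for Dnajc27 was lost without DMSO replicate 2, with DESeq2 (adjusted p = 0.0815), with library size scaling, with FPKM and with TPM. Rescaling to TPM left 0 of the DNAJC members called higher by limma and 11 lower, at a median of -0.21, or 0.01 above that of all genes.

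The 9 members of the ER had 3 higher, 3 lower and 3 that did not pass the test, or 33.3% in each direction beside 32.1% and 32.2% of all genes. They had 3 higher and 4 lower without risperidone replicate 2, and 0 higher and 5 lower in limma's test on TPM. Dnajb12 and Dnajb14 are a pair of ER membrane J-proteins that face the cytosol and serve protein degradation. Dnajb14 was at 17.6 and 15.1 FPKM with DMSO and 12.5 and 12.5 FPKM with risperidone (log2 fold change -0.51, standard error 0.06, edgeR adjusted p = 2.27e-05). Dnajb12 was at 23.8 and 23.7 FPKM with DMSO and 26.2 and 23.5 FPKM with risperidone. It was the called member whose libraries overlapped between the treatments (log2 fold change 0.16, edgeR adjusted p = 0.0490), it was not called without DMSO replicate 1, DMSO replicate 2 or risperidone replicate 1, and its log2 fold change after rescaling to TPM was -0.08. Dnajc1 was called higher at 0.28 (-0.02 and not called after rescaling to TPM), and Dnajc10, a reductase that opens disulfide bonds, was at -0.12 with an edgeR adjusted p of 0.0549. With libraries left out Dnajc10 ranged from -0.17 to -0.07 and was called lower without risperidone replicate 2 (edgeR adjusted p = 0.00922), and it was also called lower with library size scaling (-0.21), the length offset, at least 5 FPKM, FPKM and TPM (-0.35). Counts of Dnajb14, Dnajb6, Dnajc14 and Dnajc1 were partly fractional, which means that some of their reads were shared with other genes.

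Small HSP genes of the set, whose products hold unfolding proteins without ATP, were mostly near or below the limit of expression. Hspb11 was at 39.9 and 35.4 FPKM with DMSO and 61.0 and 55.1 FPKM with risperidone, with groups well apart. Its log2 fold change of 0.75 (standard error 0.08, edgeR adjusted p = 2.07e-05) was the largest rise of any member, but the protein is best known as a subunit of the intraflagellar transport complex of cilia. Hspb6 (-0.04), Hspb8 (-0.03), which works with Bag3 in selective autophagy, and Hspb2 (0.09, on 6 to 10 counts) did not pass edgeR's test. With TPM Hspb6 was called lower (-0.28, limma adjusted p = 0.00542). Hspb1, in other cells an abundant heat-inducible small HSP, had 2, 2, 3 and 5 counts in the DMSO and risperidone libraries. Of the genes named for binding an HSP, the exchange factor Hspbp1 was at 9.13 and 8.15 FPKM with DMSO and 6.35 and 5.79 FPKM with risperidone. Its log2 fold change was -0.42 (edgeR adjusted p = 0.0204). The call was lost without DMSO replicate 1 (-0.33) and with DESeq2 (adjusted p = 0.0852). Hspbap1 had a log2 fold change of 0.03.

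Of the 13 members that were not tested, 3 had more than a few reads. Hspa12a had 84, 62, 86 and 64 counts, Dnaja4 39, 25, 42 and 42, and Hspa1l, the testis HSP70 that lies 546 bases from Hspa1a, 11.9, 9, 23 and 10. For the others (Hspb1, Hspb7, Hspb9, Dnajb3, Dnajb7, Dnajb8, Dnajb13, Dnajc5b, Dnajc6 and Dnajc22) no library held more than 6 counts. A difference in these genes was not tested, since they lay below the expression limit.

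The regulators and partners of the chaperones, from lists outside the 67 genes, were higher in some lists and mixed in others. Hsf1, the transcription factor of the heat shock response, was at 25.01 and 26.99 FPKM with DMSO and 34.4 and 32.8 FPKM with risperidone (log2 fold change 0.48, standard error 0.07, edgeR adjusted p = 8.85e-05, and 0.22 after rescaling to TPM). Hsf2 was at 15.3, 15.2, 13.8 and 13.4 FPKM in the same order and did not pass the test under TMM scaling (-0.07), but was called lower with library size scaling (-0.16, edgeR adjusted p = 0.0262), the length offset, FPKM and TPM (-0.30, limma adjusted p = 0.00364). Thus the Hsf1 transcript was higher in libraries in which Hspa1a, Hspa1b, Dnajb1 and Dnaja1 transcripts were lower.

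A list of 11 genes, mostly exchange factors and adaptors of HSP70, had 5 higher and 2 lower (45.5% and 18.2%, beside 32.1% and 32.2% of all genes). It also holds the small HSP Cryab, 1 of the 2 lower genes. The adaptor St13 rose (log2 fold change 0.53), while Bag3, an inducible exchange factor (-0.43), and Cryab, a small HSP that the symbol rule does not take in (-0.45), fell, each at an edgeR adjusted p of 0.000228 or less. Among 13 HSP90 co-chaperones 4 were higher and 3 lower (30.8% and 23.1%, beside 32.1% and 32.2% of all genes). Chordc1 was at -0.62, Ahsa2 at -0.35 and Ahsa1, which stimulates the HSP90 ATPase, at 0.39. Ahsa2 was at -0.51 without DMSO replicate 1 and at -0.17 without DMSO replicate 2, where its call was lost. With TPM the 2 lists had 1 higher and 5 lower, and 1 higher and 8 lower members, beside 15% and 51.7% of all genes on that scale. Without risperidone replicate 2 their counts were 5 and 2, and 4 and 3.

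The cytosolic chaperonin TRiC and prefoldin, which fold actin and tubulin, had 11 of 14 genes higher and 0 lower in edgeR's test (0 lower also at an unadjusted p under 0.05), with a median log2 fold change of 0.41. Cct2 was at 207 FPKM in each DMSO library and at 345 and 323 FPKM with risperidone (log2 fold change 0.79, standard error 0.05, edgeR adjusted p = 3.92e-07). Pfdn5 rose by 0.76 and Cct4 by 0.71. With TPM 8 of the 14 were higher and 3 lower, at a median of 0.17, and without risperidone replicate 2 the counts were 11 and 0. Of 12 mitochondrial partners and proteases 9 were higher and 1 lower, with a median of 0.32, also without that library (9 and 1), while with TPM 5 were higher and 3 lower at a median of 0.10. Of all genes 32.1% were higher, against 78.6% and 75% in these lists. Among the mitochondrial partners the leading genes were Htra2, a protease of the intermembrane space (1.56), Hscb, a J-protein of iron-sulfur cluster assembly that lies outside the symbol rule (0.997), and the disaggregase Clpb (0.56). The mitochondrial HSP90, Trap1, had a log2 fold change of -0.05 and did not pass the test. Of the 5 ER chaperones left out of the set, Hspa5 (0.49) and Hsp90b1 (0.44) were higher and Dnajc3 (-0.27) lower.

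**Figure D4:**
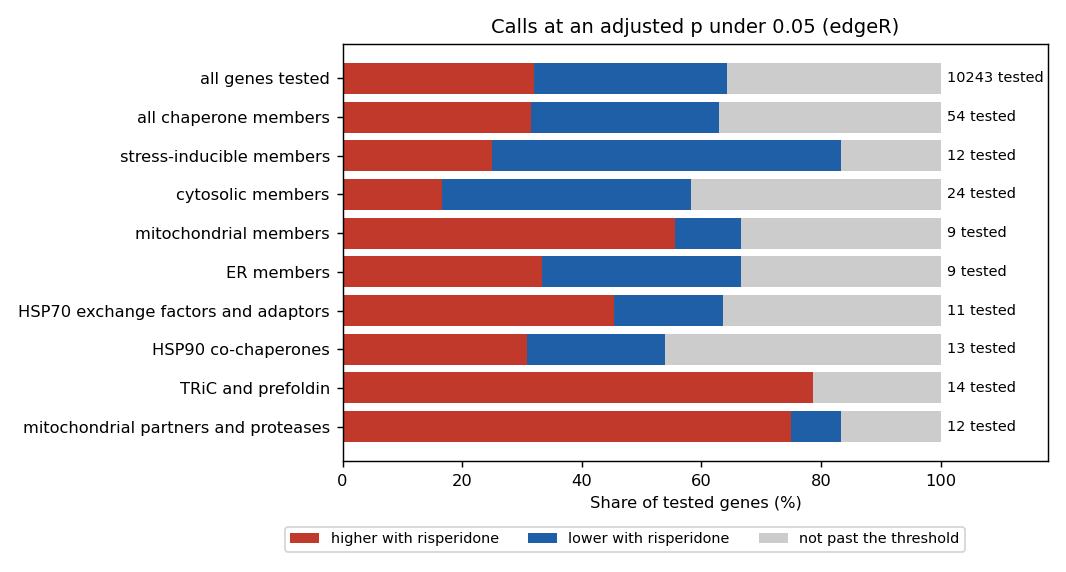
Share of tested genes (x axis, %) that were higher, lower or not past an adjusted p of 0.05 in edgeR's test, for all genes and for lists of chaperones and partners, with the number tested at the right of each bar. The list of HSP70 exchange factors and adaptors also holds the small HSP Cryab. All chaperone members resemble all genes (31.5% higher against 32.1%), 58.3% of the stress-inducible members were lower, and 78.6% of TRiC and prefoldin genes were higher; under TPM scaling, not drawn, the higher share of each of these is smaller.

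**Figure D5:**
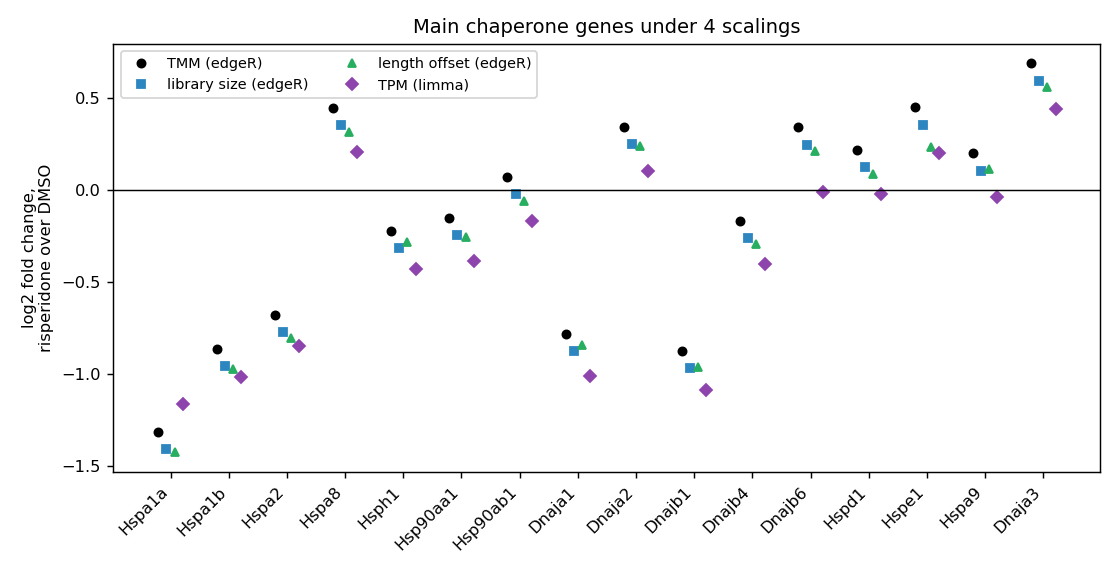
Log2 fold change (risperidone over DMSO, y axis) of 16 main chaperone genes under 4 scalings, 3 fitted with edgeR and log2(TPM + 1) with limma. The falls of Hspa1a, Hspa1b, Hspa2, Dnaja1 and Dnajb1 and the rises of Dnaja3, Hspa8, Hspe1 and Dnaja2 keep their sign under all 4, while Hsp90ab1, Dnajb6, Hspd1 and Hspa9 are below 0 under TPM.

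With each library left out in turn, 11 of the 17 higher and 12 of the 17 lower members were called in all 4 fits. The higher ones were Dnaja2, Dnaja3, Dnajb6, Dnajc1, Dnajc4, Dnajc8, Dnajc18, Hspa8, Hspb11, Hspd1 and Hspe1. The lower ones were Dnaja1, Dnajb1, Dnajb14, Dnajc5, Dnajc13, Dnajc14, Dnajc25, Dnajc28, Hspa1a, Hspa1b, Hspa2 and Hspa12b. The share of all called genes that kept their calls in this way was not counted, so these numbers describe the members alone. No member called in the TMM fit was called in the opposite direction in the 15 fits with another setting, while Hsp90ab1, not called there, was called in both directions as given above.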

How the data were processed

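The members and lists were chosen with earlier results of these data known. The libraries were mRNA of treated 3T3-L1 cells, sequenced on an MGI instrument by the authors. The deposited table gives, per gene and library, an estimated count (expected count), FPKM and TPM computed by the authors. The submitters' processing notes name Bowtie2, RSEM, DESeq2 and GRCm38.p6, and versions and settings are not given in the sources used here. The authors' group averages were not used. Counts were rounded and fitted with edgeR 4.0.16 (R 4.3.3): TMM scaling, genes averaging 1 FPKM or more, quasi-likelihood F-test, two-sided, Benjamini-Hochberg adjustment over all 10243 genes, threshold 0.05. A standard error is the size of the log2 fold change over the square root of F. TPM and FPKM were tested with limma 3.58.1 on log2(value + 1), or + 0.1 for FPKM, which understates changes of low genes. DESeq2 1.42.0, other scalings, filters and left-out libraries were alternatives. The scripts were tested on simulated data. Genes were named by rule: both lists of main chaperones, the 5 largest called rises and falls among other members, the 10 members of highest FPKM, called members with overlapping libraries, untested members, Hsf1, Hsf2 and up to 3 called genes per partner list; other names were chosen after their values were seen. Promoters are from RefSeq.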

Additional observations from a re-analysis of the deposited data

How the results depend on the processing

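DESeq2, RLE size factors, no filter, a mean of at least 5 FPKM, the length offset and each left-out library kept the counts of higher and lower members and of all changed genes within 1.5 times. Library size scaling and both FPKM tests gave 11 higher members in place of 17, and TPM gave 4 higher and 28 lower. A minimum size of 1 on the log2 scale left 0 higher and 3 lower members and 668 of all genes. Leaving out 1 library gave 12 to 19 higher and 13 to 19 lower members and 5391 to 6660 changed genes. Of the members named by the rule, these signs turned, and the cause was not tested. With TPM the log2 fold changes were -0.0773 for Dnajb12, -0.0107 for Dnajb6, -0.1704 for Hsp90ab1, -0.0243 for Hspa14, -0.2208 for Hspa4, -0.0416 for Hspa9 and -0.0251 for Hspd1, and limma called Hsp90ab1 and Hspa4 lower (adjusted p = 0.00975 and 0.00413). Hsp90ab1 was at -0.0271 with both FPKM tests, -0.0595 with the length offset and -0.0241 with library size. Hspa4 was at -0.0788 and -0.0779 with FPKM (pseudocounts 0.1 and 1), -0.0773 with library size, -0.0047 with the length offset and -0.0086 with at least 5 FPKM. Hspb8 was at 0.0559 without DMSO replicate 2. Of the other members, Dnajc1 (-0.02), Dnajc9, Dnajc11, Dnajc16, Dnajc19, Dnajc21, Hspb2 and Hspbap1 also turned to below 0 with TPM, where Dnajc11 was called lower, and between 6 and 8 members changed sign uncalled with each other scaling that lowers all genes. The median of all members was -0.0805 and -0.0758 with FPKM, -0.0820 with library size, -0.2169 with TPM, -0.1374 with the length offset, -0.0032 with at least 5 FPKM, and -0.0672 (without DMSO replicate 1) to 0.0322 (without DMSO replicate 2) with libraries left out. The DNAJC median was -0.0748 and -0.0715 with FPKM, -0.0667 with library size, -0.2122 with TPM, -0.1228 with the length offset and -0.0246 (without DMSO replicate 1) to 0.1012 (without DMSO replicate 2) with libraries left out, and the mitochondrial median was -0.0251 with TPM.

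The shared replicate numbers did not pair the libraries (correlation of the deviations of same-numbered libraries -0.105). With the replicate number as a block, 17 members were higher, 18 lower and 6613 genes changed; 33 calls were kept, Dnajb12 was lost, and Hspa14 and Dnajb5 were gained. The crossed pairing, added after the data were seen, gave 18 higher, 21 lower and 6993 changed genes. With 2 libraries per group, small changes and genes of few counts are limited by depth and number.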

Other observations

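Outside the chaperones, the retina marker Crx had 1 and 2 counts with DMSO and 41 and 35 with risperidone. It was below the expression limit and was not tested. Of the 4 tested adipocyte markers, Pnpla2 was higher, Fabp4 and Lipe were lower, and Pparg did not pass edgeR's test. Of the 10 fibroblast or preadipocyte markers, 3 were higher, 4 lower and 3 did not pass the test.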
